A study of Mus musculus with 12 samples.

Results

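The Klk1b genes are the mouse-specific expansion of the tissue kallikrein gene family, and their response to estradiol (E2) was examined in the oviduct and uterus of preimplantation mice. A gene was taken as a member when a probe set on the array carried a single annotated symbol starting with Klk1b, and the probe set with the highest mean stood for the gene. This rule gave 10 genes of the 19938 genes measured: the 9 coding genes Klk1b1, Klk1b5, Klk1b8, Klk1b9, Klk1b11, Klk1b16, Klk1b22, Klk1b24 and Klk1b27, and the transcribed pseudogene Klk1b7-ps. The mouse gene table lists 23 Klk1b genes on chromosome 7, of which 13 are coding, and 4 coding genes were not analysed here.

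Total RNA of the oviduct or the uterine horns, both flushed before freezing, was hybridised to 12 Affymetrix arrays, with 1 sample on each. E2-treated mice received 10 µg/kg E2 under the skin once a day from day 0.5 to day 2.5 of pregnancy in 100 µl sesame oil, control mice received the oil without E2 (0 µg/kg), and both were dissected on day 3.5. The 4 groups were E2 oviduct, oil oviduct, E2 uterus and oil uterus, with 3 arrays each that the labels number as biological replicates. The labels used here name neither strain nor age, nor whether an array held the RNA of 1 mouse or of pooled mice, so p-values measure the spread between these arrays. All mice were pregnant and received oil, and no group without injection was included.

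Tissue kallikreins are secreted serine proteases with trypsin-like specificity, made by gland ducts and other secretory epithelia. The founding member, Klk1, releases kinins from kininogens, and kinins act on bradykinin receptors to widen vessels and contract other smooth muscle. In the mouse the Klk1b copies lie side by side in a cluster and are best known from the salivary gland, where androgens raise them in males. Several act on growth factors and hormones: Klk1b9 and Klk1b22 are known as binding proteins of epidermal growth factor, Klk1b16 as gamma-renin, and Klk1b24 and Klk1b27 have been described in the Leydig cells of the mouse testis.

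The promoters of 9 members were found in the RefSeq promoter table (build GRCm38.p6), which has no window for Klk1b7-ps. Each window spans 300 bases, with 250 before and 50 after the gene's start. The 250 bases before the start are shown for the 3 coding members that rose with E2 in the oviduct and, as a contrast chosen after its values were seen, for Klk1b16, whose signal stayed near background in all groups. Capitals mark the core letters of an estrogen receptor site, written GGTCA when they lie on the strand shown. On the opposite strand the same core reads as TGACC. Capitals also mark a TATA-like box, TTTAAA.
Klk1b1, chr7:43966501-43966750, plus strand: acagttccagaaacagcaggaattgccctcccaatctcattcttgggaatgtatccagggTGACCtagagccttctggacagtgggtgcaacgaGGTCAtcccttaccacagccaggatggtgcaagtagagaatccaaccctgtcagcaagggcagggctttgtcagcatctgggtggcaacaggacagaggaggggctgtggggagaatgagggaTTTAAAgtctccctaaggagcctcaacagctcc
Klk1b24, chr7:44187986-44188235, plus strand: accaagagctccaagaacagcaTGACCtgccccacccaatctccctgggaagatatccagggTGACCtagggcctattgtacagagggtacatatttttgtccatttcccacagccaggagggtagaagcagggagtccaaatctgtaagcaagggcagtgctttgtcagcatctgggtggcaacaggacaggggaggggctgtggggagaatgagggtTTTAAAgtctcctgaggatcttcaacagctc
Klk1b5, chr7:44216224-44216473, plus strand: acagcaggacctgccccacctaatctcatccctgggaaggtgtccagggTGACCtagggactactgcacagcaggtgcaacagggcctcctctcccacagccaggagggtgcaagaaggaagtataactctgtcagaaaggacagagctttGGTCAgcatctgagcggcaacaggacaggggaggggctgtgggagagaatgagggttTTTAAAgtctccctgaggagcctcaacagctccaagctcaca
Klk1b16, chr7:44137040-44137289, plus strand: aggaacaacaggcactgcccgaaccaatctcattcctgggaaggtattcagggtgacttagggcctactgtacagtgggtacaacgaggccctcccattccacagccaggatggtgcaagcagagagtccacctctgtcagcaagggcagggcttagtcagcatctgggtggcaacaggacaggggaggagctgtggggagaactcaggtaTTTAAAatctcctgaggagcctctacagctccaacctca

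The windows of the 9 genes were 67.5% to 90.4% identical to each other over 36 pairs, with a median of 79.7%. TTTAAA was present in 9 of 9 member windows, starting 44 to 17 bases before the gene's start, against 13.2% of the 32851 windows of the table; this motif was searched after the sequences had been seen. GGTCA or TGACC was present in 7 of 9 member windows and absent from those of Klk1b11 and Klk1b16, against 40.5% of all windows. The windows with it included those of Klk1b8 and Klk1b9, whose E2 differences in the oviduct were -0.09 and 0.11 on the log2 scale. They also included those of Klk1b22 and Klk1b27, which did not pass the test there. Klk1b16 was too dim to stand for a gene without a response. The full palindrome of GGTCA and TGACC separated by 3 bases, the estrogen response element, was in 0 of 9 member windows and in 0.0700% of all windows. These matches are letters in a short window and do not show binding.

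Signals of the family were low, and probe sets of such similar genes can take up each other's RNA. As a rough level for genes not expected in these tissues, the 1027 olfactory receptor genes had a median of 4.07 and a 95th percentile of 5.67 in mean log2 intensity. The means of Klk1b24 and Klk1b27 over the 12 arrays were above 5.67, as were 72.6% of all genes, and 6 members exceeded it on at least 3 arrays (Klk1b24, Klk1b27, Klk1b7-ps, Klk1b11, Klk1b5 and Klk1b1). Klk1b1 and Klk1b5 did so on the 3 E2 oviduct arrays alone. An alternative fit that kept only genes above this level on at least 3 arrays is therefore no separate support for their rise. Klk1b8, Klk1b16 and Klk1b22 stayed below it on all arrays, and Klk1b9 exceeded it on 1 array. Probe sets differ in brightness, so this level is a guide only. A fold change measured from near it can understate the change in RNA, and can also reflect RNA of another copy. The probe sequences were not used here, so how much of a signal comes from another copy was not tested.

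Of the arrays, oil replicate 3 stood apart in both tissues: 302 genes in oviduct and 177 in uterus deviated by over 1 on the log2 scale from the average of the remaining arrays in the same group, against 8 to 62 genes on each of the other 10 arrays. In the oil oviduct, 6 of 7 measured genes of steroid-producing cells were higher on replicate 3 than on the other arrays of the group, by a median of 2.94 on the log2 scale. In the oil uterus that median was 0.02, with 4 of the 7 higher. The Klk1b genes differed by -0.13 to 0.61 on the oil oviduct array and by -0.15 to 0.60 on the oil uterus array. Results without both arrays of oil replicate 3 are given below where they differ. The tissue labels were checked against markers, and 8 of 8 genes of ciliated cells were higher in oviduct than in uterus in both E2 and oil mice.

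**Figure D1:**
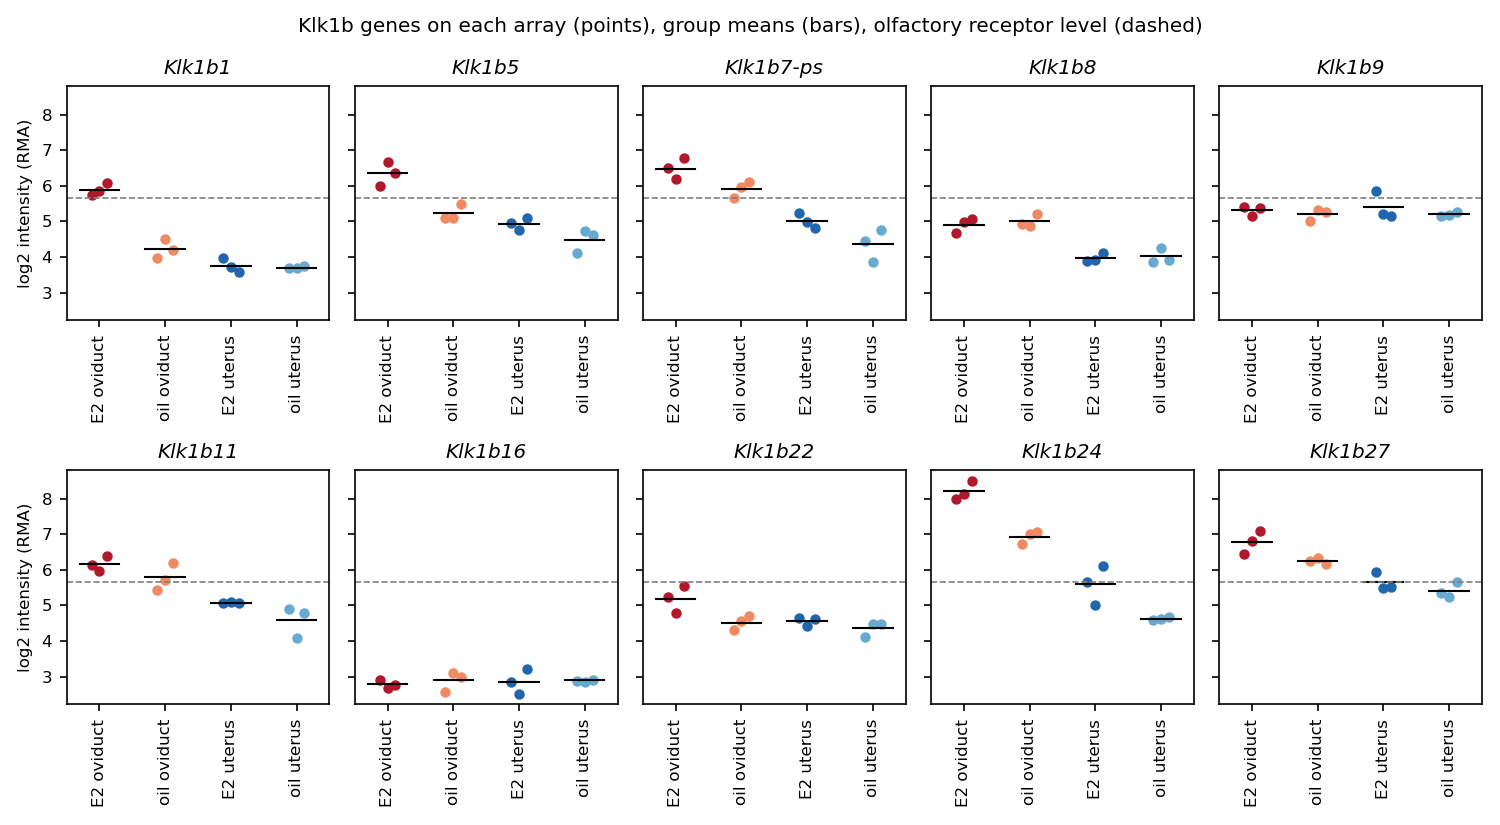
Log2 intensity (vertical axis) of each Klk1b gene on each array, in the order E2 oviduct, oil oviduct, E2 uterus and oil uterus; points are arrays, bars are means of 3 arrays, and the dashed line is the olfactory receptor level of 5.67. Klk1b1 exceeded that level in the E2 oviduct alone (5.74 to 6.07), and Klk1b24 had its highest values there (7.99 to 8.51).

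In the oviduct, E2 raised 3 of the 10 Klk1b genes and lowered none. Klk1b1 was 3.19-fold higher, Klk1b24 2.42-fold and Klk1b5 2.16-fold in E2 than in oil oviducts. Over all genes, limma with Benjamini-Hochberg adjustment called 0.160% higher in this comparison (32 genes), 0.130% lower and 0.291% in either direction. The family made up 3 of the 32 genes called higher. The median difference of the 10 genes was 0.56 on the log2 scale, against -0.006 over all genes tested.

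Klk1b1 had 5.74, 5.86 and 6.07 log2 intensity in the E2 oviducts, against 3.96, 4.50 and 4.19 in the oil oviducts. Every E2 oviduct array was above every oil oviduct array, with a gap wider than the spread within either group. The means were 5.89 ± 0.16 in E2 and 4.22 ± 0.27 in oil oviducts (SD, n = 3 each). The difference was 1.68 (SE 0.14, 95% interval 1.37 to 1.98, limma adjusted p = 0.00032), and it passed under each of 23 alternatives, at 1.12 to 1.82. Among these, the filter at the olfactory receptor level kept Klk1b1 only through its E2 oviduct arrays and is no separate support.

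Klk1b24 had 7.99, 8.13 and 8.51 log2 intensity in the E2 oviducts, against 6.73, 7.00 and 7.07 in the oil oviducts. These ranges did not overlap. The means were 8.21 ± 0.27 and 6.93 ± 0.18 for E2 and oil oviducts (SD, n = 3 each), a difference of 1.28 (SE 0.23, 95% interval 0.78 to 1.77, limma adjusted p = 0.047). The call was close to the threshold of 0.05: it was lost without any 1 of the 6 oviduct arrays (adjusted p 0.069 to 0.21), without E2 uterus replicate 1 (0.089) and without any 1 of the 3 oil uterus arrays (0.057 to 0.082), while the difference stayed between 1.13 and 1.46 over the alternatives. Without both arrays of oil replicate 3 it was 1.35 with an adjusted p of 0.064.

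Klk1b5 had 6.00, 6.68 and 6.37 log2 intensity in the E2 oviducts, against 5.11, 5.10 and 5.49 in the oil oviducts. Again no oil oviduct array reached the lowest E2 oviduct array. The means were 6.35 ± 0.34 and 5.24 ± 0.22 for E2 and oil oviducts (SD, n = 3 each), a difference of 1.11 (SE 0.20, 95% interval 0.68 to 1.55, limma adjusted p = 0.047). The call was lost without any 1 of the 3 E2 oviduct arrays or without oil oviduct replicate 1 or 2 (0.056 to 0.19), without any 1 of the 3 E2 uterus arrays (0.074 to 0.09), and without oil uterus replicate 2 (0.062) or replicate 3 (0.057). Its difference lay between 0.86 and 1.29 over the alternatives.

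The other 7 members did not pass the test in the oviduct. Among them, the E2 and oil ranges did not overlap for Klk1b22, Klk1b7-ps and Klk1b27. Klk1b22, a binding protein of epidermal growth factor, had 5.25, 4.78 and 5.55 in E2 oviducts, against 4.30, 4.56 and 4.71 in oil oviducts, a difference of 0.67 (SE 0.18, limma adjusted p = 0.19). Klk1b27 had 6.46, 6.81 and 7.10 in E2 oviducts, against 6.25, 6.33 and 6.16 in oil oviducts, a difference of 0.54 (SE 0.17, limma adjusted p = 0.26). For both, all 3 E2 arrays were above all 3 oil arrays, by a margin smaller than the spread among the E2 arrays. Klk1b7-ps had 6.49, 6.18 and 6.79 in E2 oviducts, against 5.67, 5.97 and 6.10 in oil oviducts, a difference of 0.57 (SE 0.22, limma adjusted p = 0.39). At an unadjusted p under 0.05, 6 of 10 members passed, against 10.5% of all genes. With Klk1b1, Klk1b24 and Klk1b5, there were 6 of 10 members whose E2 oviduct arrays all lay above the oil oviduct arrays, against 8.31% of all genes.

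Klk1b11 overlapped between the groups, with 6.13, 5.96 and 6.40 in E2 oviducts and 5.44, 5.73 and 6.19 in oil oviducts. Its difference was 0.38 (95% interval -0.10 to 0.86). The overlap came from the oil array at 6.19, which was replicate 3. Without both arrays of oil replicate 3 the difference was 0.58, still not past the test (limma adjusted p = 0.33). Klk1b8, Klk1b9 and Klk1b16 had differences near 0, with 95% intervals that reached at most 0.48 upward. Klk1b8 had 4.68, 4.98 and 5.07 in E2 oviducts and 4.92, 4.88 and 5.21 in oil oviducts. Klk1b9 had 5.42, 5.15 and 5.37 in E2 oviducts and 5.02, 5.33 and 5.26 in oil oviducts. Klk1b16, gamma-renin, had 2.91, 2.69 and 2.77 in E2 oviducts and 2.57, 3.09 and 3.00 in oil oviducts, values below the median of the olfactory receptor genes. At that brightness a change in RNA could not be read from the array.

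In bulk tissue, fewer cells of a type and less RNA per cell cannot be told apart. Epithelium is the usual source of kallikreins, and its 11 marker genes summed to 9332 to 9930 intensity units in E2 oviducts and to 9874 to 11031 in oil oviducts. None of the 11 was called higher with E2 in the oviduct and 1 was called lower, with a median difference of -0.15. Over all genes 0.160% were called higher and 0.130% lower, so a count of 0 is no result about a list. At an unadjusted limma p under 0.05, 4 of the 11 passed, against 10.5% of all genes. Of 7 measured markers of oviduct secretory cells, 0 were called higher and 1 lower (Wfdc2, -0.95), and 3 had an unadjusted p under 0.05. Their median difference was 0.00. Their summed intensity was 6722 to 7375 in E2 oviducts, against 5162 to 5565 in oil oviducts, and among them Lcn2 had a difference of 0.97 and Gpx3 of 0.55 without passing the test. The list is not particular to the oviduct. In E2 mice 1 of the 7 was higher and 5 lower in oviduct than in uterus (median -0.78), and in oil mice 5 were higher and 0 lower (median 0.34). Of 7 macrophage markers, 0 passed limma's adjusted test and 6 had an unadjusted p under 0.05, with a median difference of 0.49. Their sums were 2347 to 2847 in E2 oviducts and 1361 to 2118 in oil oviducts. Salivary gland, which is rich in Klk1b RNA, and pancreas had 9 measured markers that summed to 445 to 451 in E2 and 428 to 454 in oil oviducts, and none of them passed the test. The part of these cell types in the oviduct results was not tested.

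**Figure D2:**
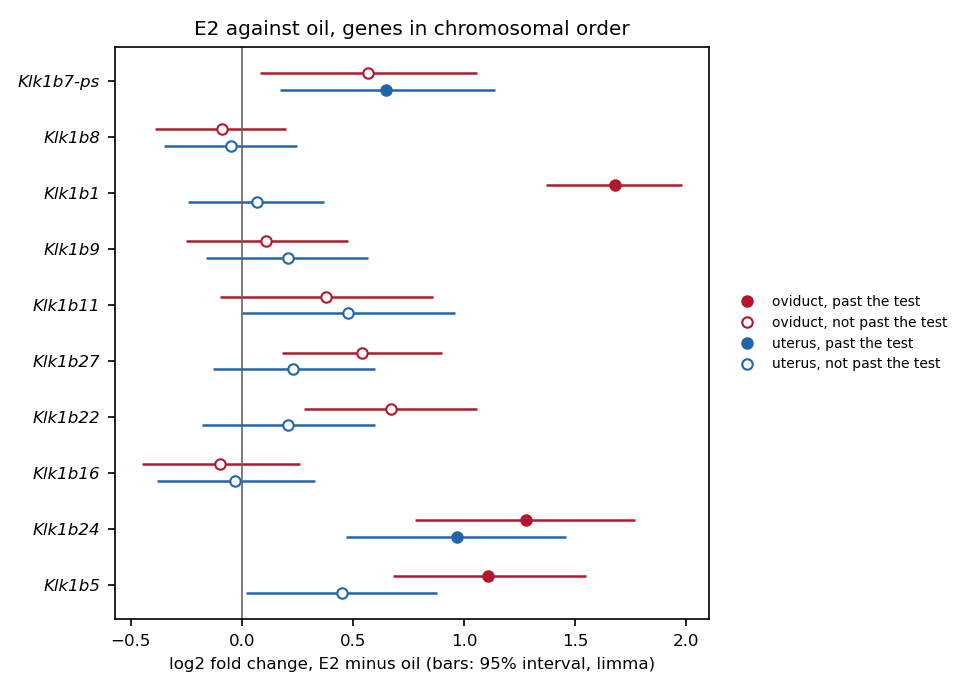
Difference in log2 intensity, E2 minus oil (horizontal axis), for each Klk1b gene in its order along chromosome 7, in oviduct (red, upper point of each pair) and uterus (blue); lines are 95% intervals and filled points passed the test. Klk1b1 stands apart with 1.68 in oviduct and 0.07 in uterus, and Klk1b24 was past the test in both tissues (1.28 and 0.97).

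In the uterus, E2 raised 2 of the 10 Klk1b genes, Klk1b24 (1.95-fold) and Klk1b7-ps (1.57-fold), and lowered none. E2 changed many more genes in the uterus than in the oviduct: 12.4% of all genes were called higher, 14.3% lower and 26.7% in either direction, and 2 of 10 is close to the share called higher. At an unadjusted p under 0.05, 3 of 10 members passed, against 36.1% of all genes. The median difference of the 10 genes was 0.22, against -0.001 over all genes. The E2 uterus arrays lay wholly above the oil uterus arrays for 4 members (Klk1b24, Klk1b7-ps, Klk1b5 and Klk1b11), against 19.0% of all genes.

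Klk1b24 had 5.65, 5.02 and 6.12 log2 intensity in E2 uteri, against 4.58, 4.63 and 4.68 in oil uteri. The E2 uteri were more scattered than the oil uteri, and the lowest of them was still above all oil uteri. Only the E2 uterus array at 6.12 exceeded the olfactory receptor level of 5.67. The means were 5.60 ± 0.56 and 4.63 ± 0.05 for E2 and oil uteri (SD, n = 3 each), a difference of 0.97 (SE 0.23, 95% interval 0.47 to 1.46, limma adjusted p = 0.0075). The call was kept under each of 23 alternatives, at 0.54 to 1.26 with adjusted p of 0.00056 to 0.049.

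Klk1b7-ps, a transcribed pseudogene whose probe set may take up RNA of coding copies, had 5.25, 4.99 and 4.81 in E2 uteri, against 4.46, 3.86 and 4.76 in oil uteri. The lowest E2 array, 4.81, lay just above the highest oil array, 4.76. The difference was 0.65 (SE 0.22, 95% interval 0.17 to 1.14, limma adjusted p = 0.048). The call was lost without any 1 of the 3 E2 uterus arrays (adjusted p 0.052 to 0.16), without oil uterus replicate 1 (0.078) or 2 (0.17), without E2 oviduct replicate 1 (0.064) and without oil oviduct replicate 1 (0.05) or 2 (0.059). Without oil uterus replicate 2, its lowest array, the difference was 0.41. Without both arrays of oil replicate 3 it was 0.86 with an adjusted p of 0.013.

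The remaining 8 members did not pass in the uterus. Klk1b5 had 4.96, 4.75 and 5.09 in E2 uteri, against 4.10, 4.74 and 4.61 in oil uteri, a difference of 0.45 (SE 0.20, limma adjusted p = 0.12). Klk1b11 had 5.06, 5.10 and 5.07 in E2 uteri, against 4.91, 4.08 and 4.79 in oil uteri, a difference of 0.48 (SE 0.22, limma adjusted p = 0.14). In both genes the lowest E2 array lay just above the highest oil array. Klk1b1 had 3.98, 3.71 and 3.59 in E2 uteri and 3.68, 3.68 and 3.74 in oil uteri, a difference of 0.07 (95% interval -0.24 to 0.37, limma adjusted p = 0.81). Its uterine values lay below the median of the olfactory receptor genes, so a uterine change below the detectable range is not covered by that interval.

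Klk1b27 had 5.94, 5.49 and 5.53 in E2 uteri and 5.35, 5.25 and 5.65 in oil uteri, and Klk1b22 had 4.65, 4.43 and 4.61 in E2 uteri and 4.12, 4.49 and 4.47 in oil uteri. These ranges overlapped, and the differences were 0.23 and 0.21. Klk1b9 had 1 high array, with 5.87, 5.20 and 5.14 in E2 uteri and 5.14, 5.18 and 5.27 in oil uteri. Klk1b8 (3.88, 3.91 and 4.11 in E2 uteri, 3.87, 4.26 and 3.92 in oil uteri) and Klk1b16 (2.86, 2.52 and 3.20 in E2 uteri, 2.88, 2.86 and 2.91 in oil uteri) had differences of -0.05 and -0.03.

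The uterus also changed in its marker genes. Over all genes 12.4% were called higher and 14.3% lower there, and the counts of these short lists are to be read against those shares. Of the 11 epithelial markers, 10 rose with E2 and none fell, with a median difference of 0.82, and their sum was 9420 to 10549 in E2 uteri, against 4389 to 5120 in oil uteri. Of 8 measured markers of uterine glands, 0 rose and 3 fell, with sums of 837 to 1198 in E2 and 2306 to 2834 in oil uteri. In the list of oviduct secretory cell markers, which is not particular to the oviduct, 6 of 7 rose in the uterus (median 1.18). Of the macrophage markers 5 of 7 rose (median 0.70). None fell in either list. Markers of stroma fell in 5 of 9 (median -0.29), and those of smooth muscle rose in 2 of 7 (median 0.40). The part of these shifts in the uterine values of Klk1b24 and Klk1b7-ps was not tested.

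Whether E2 acted differently in the 2 tissues was tested as the difference of the differences. It passed for 1 member, Klk1b1, whose E2 effect was 1.61 larger on the log2 scale in oviduct than in uterus (SE 0.19, 95% interval 1.18 to 2.04, limma adjusted p = 0.00032); over all genes 5.77% were called in this direction and 11.5% in either. The value passed under each of 22 alternatives, at 1.09 to 1.78, of which the filter at the olfactory receptor level is again no separate support. For Klk1b5 the same quantity was 0.66 (SE 0.28, 95% interval 0.05 to 1.27, adjusted p = 0.17). For Klk1b24 it was 0.31 (SE 0.32, 95% interval -0.39 to 1.01, adjusted p = 0.65), so these arrays do not tell its oviduct and uterus effects apart. Klk1b7-ps had -0.08 (95% interval -0.77 to 0.60).

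Most members of the family were also higher in oviduct than in uterus. In E2 mice 8 of 10 members were higher in the oviduct, against 15.2% of all genes called higher, 18.9% lower and 34.1% in either direction. In oil mice 7 of 10 were higher, against 17.3% higher, 21.5% lower and 38.7% in either direction. No member was lower in the oviduct in either comparison, and the medians of the 10 differences were 1.12 in E2 mice and 0.79 in oil mice, against -0.038 and -0.040 over all genes. The oviduct arrays lay wholly above the uterus arrays for 8 members in E2 mice and 7 in oil mice, against 21.1% and 20.3% of all genes. Among the members counted, Klk1b8 and Klk1b22 were below the olfactory receptor level on all arrays, and Klk1b1 and Klk1b5 on all oil arrays. Probe sets of these copies may take up each other's RNA, so the members may not be separate signals.

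Klk1b24 differed most in the E2 mice, with a 6.13-fold higher value in E2 oviducts than in E2 uteri (log2 difference 2.61, SE 0.23, limma adjusted p = 4.5e-06). In oil mice it was 4.93-fold higher in oviduct (2.30, adjusted p = 8.3e-06). Its groups thus stood in the order E2 oviduct, oil oviduct, E2 uterus and oil uterus, with no overlap between neighbours. Klk1b1 was 4.37-fold higher in oviduct than in uterus of E2 mice (2.13, adjusted p = 4.2e-07) and 1.43-fold higher in oil mice (0.52, adjusted p = 0.01). Its oil oviduct and E2 uterus neighbours in the order of means, 4.22 and 3.76, overlapped, with 3.96 for the lowest oil oviduct array and 3.98 for the highest E2 uterus array.

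Klk1b7-ps and Klk1b11 had tissue differences of similar size in both treatments: 1.47 in E2 mice and 1.55 in oil mice for Klk1b7-ps, and 1.09 and 1.19 for Klk1b11. Klk1b8, which did not pass in either E2 comparison, was higher in oviduct by 0.94 in E2 mice and 0.99 in oil mice (adjusted p = 0.00022 and 0.00012). Klk1b27 had 1.14 in E2 mice and 0.83 in oil mice, and Klk1b5 had 1.41 and 0.75. Klk1b22 passed in E2 mice alone (0.63, adjusted p = 0.017, against 0.16 and 0.54 in oil mice), and this call was lost without E2 oviduct replicate 1 or 3 or E2 uterus replicate 2 (highest adjusted p 0.074). The change in its tissue difference was not past the test (0.46, adjusted p = 0.31). Klk1b9 and Klk1b16 had tissue differences between -0.09 and 0.00.

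Epithelial markers moved with the tissue in oil mice, where 10 of 11 were higher in oviduct, against 17.3% of all genes. Their sums were 9874 to 11031 in oil oviducts and 4389 to 5120 in oil uteri. In E2 mice 2 of the 11 were higher and 3 lower in oviduct, against 15.2% and 18.9% of all genes. The sums overlapped (9332 to 9930 in E2 oviducts and 9420 to 10549 in E2 uteri), and 8 Klk1b genes were higher in oviduct. Of 8 mast cell markers, 2 were higher in oviduct than in uterus of E2 mice, Hdc (2.61) and Kit (1.26), near the 15.2% of all genes. The median over the list was -0.03. The mast cell proteases among them, Cpa3, Cma1, Tpsb2, Tpsab1 and Mcpt4, had tissue differences between -0.10 and 0.05 in E2 mice, and none passed. The list summed to 2473 to 2581 in E2 oviducts and 782 to 910 in E2 uteri. Its brightest gene in both groups was Hdc, with mean log2 intensities of 10.82 and 8.20, so these sums mostly follow Hdc. The part of these cells in the Klk1b differences was not tested.

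**Figure D3:**
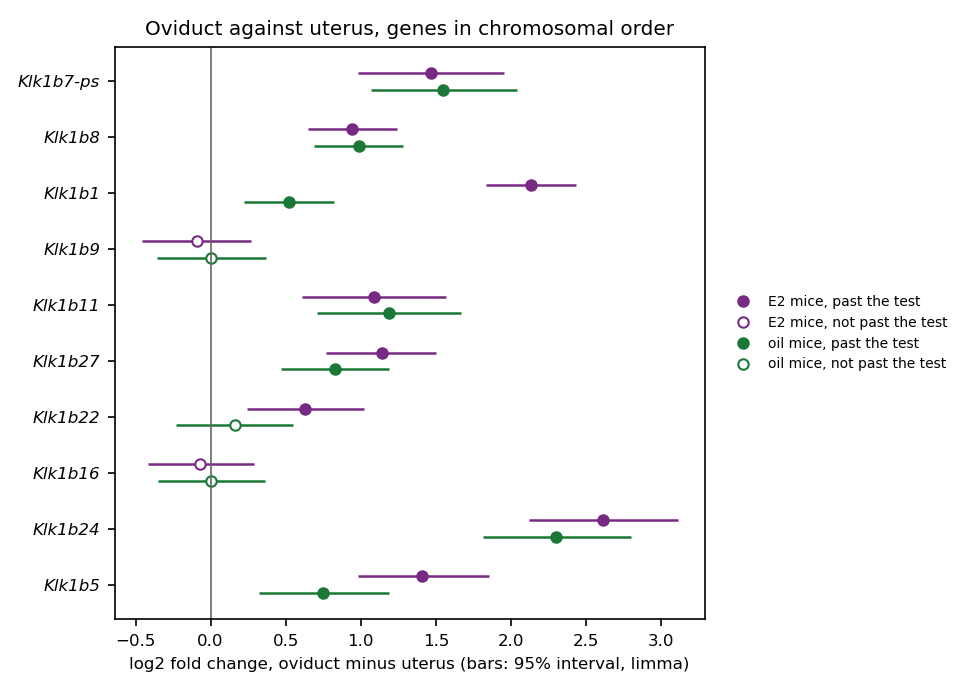
Difference in log2 intensity, oviduct minus uterus (horizontal axis), for each Klk1b gene in its order along chromosome 7, in E2 mice (purple, upper point of each pair) and oil mice (green); lines are 95% intervals and filled points passed the test. Klk1b24 has the largest differences (2.61 and 2.30), and Klk1b9 and Klk1b16 lie near 0 in both.

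Most members varied together over the arrays. Over the 12 arrays, Pearson's r between Klk1b7-ps and Klk1b11 was 0.97, that of Klk1b24 with Klk1b27 and with Klk1b7-ps was 0.94 each, Klk1b24 with Klk1b5 had 0.93 and Klk1b1 with Klk1b5 had 0.91. Klk1b9 and Klk1b16 had r between -0.19 and 0.37 with every other member. Klk1b16 was below the olfactory receptor level on all arrays and Klk1b9 was above it on 1. Klk1b8 and Klk1b22, which varied with the other members, were also below it on all arrays, so this level does not set Klk1b9 apart. For Klk1b16, the dimmest member with a mean of 2.86, a pattern of its own cannot be read. The values of r describe arrays that share tissue and treatment and carry no test. The promoter windows of Klk1b24 and Klk1b27, both above the olfactory receptor level in the mean, were 83.1% identical. The most identical windows, those of Klk1b11 and Klk1b16 (90.4%), belonged to genes with r of -0.02. The least identical, those of Klk1b8 and Klk1b27 (67.5%), belonged to genes with r of 0.80. Whether identity of the windows goes with r was not tested.

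Along the cluster, Klk1b1 lay apart from the other 2 genes that rose in the oviduct. In chromosomal order the measured genes run Klk1b7-ps, Klk1b8, Klk1b1, Klk1b9, Klk1b11, Klk1b27, Klk1b22, Klk1b16, Klk1b24 and Klk1b5. Klk1b1, with an oviduct difference of 1.68, lies between Klk1b8 (-0.09) and Klk1b9 (0.11) among the measured genes. Klk1b24 (1.28) and Klk1b5 (1.11) follow Klk1b16 (-0.10) at the end of the order. A further probe set carries the symbols of Klk1b26 and Egfbp2 together and so was not a member; it had 5.18, 5.46 and 5.32 in E2 oviducts, against 4.99, 5.15 and 5.17 in oil oviducts, a difference of 0.21 (SE 0.08, adjusted p = 0.50 over all probe sets).

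**Figure D4:**
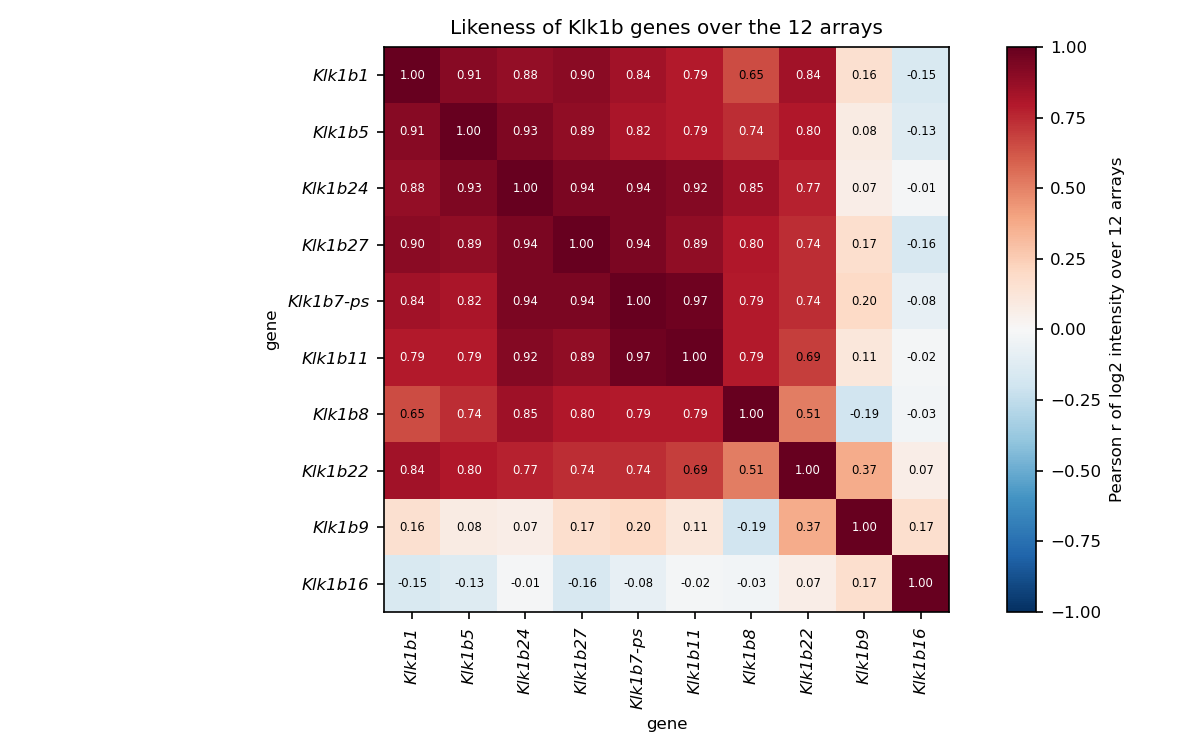
Pearson's r of log2 intensity over the 12 arrays for each pair of Klk1b genes (both axes; colour and printed number give r). The upper left 8 genes have r of 0.51 or more with each other, and Klk1b9 and Klk1b16 are set apart.

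The genes whose signal was most like that of each E2-responsive member were named from all other genes by Pearson's r over the 12 arrays. For Klk1b1 they were 2300002M23Rik (r = 0.959), Scgb1c1 (0.956), a secretoglobin, and Dcpp2 (0.955), a secreted protein of the demilune cells of salivary glands. Their differences between E2 and oil oviducts were 1.01, 2.37 and 2.59 on the log2 scale, given as a description because the genes were chosen for their likeness on these arrays. For Klk1b24 they were Pef1 (0.991), Agr2 (0.980), a disulphide isomerase of mucus-secreting cells, and Rtn3 (0.978). For Klk1b5 they were Rab29 (0.952), Acot1 (0.945) and Pef1 (0.927), and for Klk1b7-ps Dnajc4 (0.975), Cox14 (0.975) and 2310030G06Rik (0.972). The genes named for Klk1b24, Klk1b5 and Klk1b7-ps differed less between E2 and oil oviducts, from 0.06 (Dnajc4) to 0.65 (Agr2), and none passed the test there. In the uterus, Agr2 (0.75), 2310030G06Rik (0.36), Cox14 (0.23) and Dnajc4 (0.18) passed, and the others named for Klk1b24, Klk1b5 and Klk1b7-ps did not. Of the genes named for Klk1b1, Scgb1c1 rose in the uterus as well (1.00, limma adjusted p = 0.0011). The uterine differences of 2300002M23Rik (0.03) and Dcpp2 (-0.09) did not pass.

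The other genes of the pathway were followed in 6 lists of 8 to 16 measured genes. With 0.291% of all genes called in the oviduct, a count of 0 there is no result about a list. In the uterus 12.4% of all genes were called higher and 14.3% lower, and the counts of the lists are to be read against those shares. Of 12 other tissue kallikreins (Klk4 to Klk15; Klk1 was not analysed here), 0 passed in the oviduct (0 at an unadjusted p under 0.05), and 2 rose in the uterus, Klk11 by 0.93 (SE 0.12, limma adjusted p = 0.00017) and Klk10 by 0.50 (SE 0.11, adjusted p = 0.0067). Both had a larger E2 effect in uterus than in oviduct (oviduct effect minus uterus effect of -0.88 and -0.59, adjusted p = 0.0067 and 0.036), the opposite side from Klk1b1.

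Of 15 measured genes of the kallikrein-kinin system, 0 passed in the oviduct by limma (0 unadjusted). In the uterus 3 rose and 4 fell. The risers included Cpm (2.36) and Cpn1 (2.04), carboxypeptidases that trim kinins, and the genes that fell included Mme (-1.15), a peptidase that degrades kinins, and Bdkrb2 (-0.66), the bradykinin B2 receptor. Between tissues, 2 were higher and 1 lower in oviduct of E2 mice: Bdkrb1, the inducible kinin receptor (1.07), Ace, a kinin-degrading peptidase (1.05), and Cpm (-1.87). In oil mice 4 were higher and 4 lower in oviduct, with Cpn1 at 2.09 and Bdkrb1 at 1.08. Among 8 substrates and receptors linked to Klk1b proteases, 0 passed in the oviduct by limma (1 unadjusted) and 2 fell in the uterus, Egfr (-0.67), the receptor of epidermal growth factor, and F2r (-0.74), the thrombin receptor.

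Among 10 protease inhibitors that can bind kallikreins, 0 passed in the oviduct by limma (1 unadjusted). Serpina3n, singled out after its values were seen, had an oviduct difference of 1.32 with an SE of 0.45 and an adjusted p of 0.32. In the uterus 4 inhibitors rose, among them A2m (1.85) and Spint2 (1.14), and 2 fell, with Spink1, a trypsin inhibitor, at -3.92. Of 16 other trypsin-like proteases, 0 passed in the oviduct by limma (2 unadjusted) and 6 rose in the uterus, led by Tmprss11d (1.93), St14 (1.39) and Tmprss4 (1.08), all membrane-bound. Of 8 measured hormone receptors, 0 passed in the oviduct by limma (0 unadjusted). Esr1, the estrogen receptor that mediates most uterine responses, had a mean of 11.01 in E2 and 10.96 in oil oviducts (difference 0.05, adjusted p = 0.82).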

How the data were processed

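RNA from 12 samples was measured on 12 Affymetrix arrays. The authors deposited 1 linear intensity per probe set (35556) and array, made with RMA per the submitters' processing notes; the array medians were 89.5 to 92.9. These were log2 transformed here. Probe sets were named from the platform annotation of 2016: 21789 had 1 symbol, 1621 several and 12146 no listed gene. Genes with more than 1 probe set (999) were represented by the probe set with the highest mean, which gave 19938 genes.

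limma 3.58.1 in R 4.3.3 fitted 4 group means to all 12 arrays, with empirical Bayes moderation and Benjamini-Hochberg adjustment over all genes at 0.05, two-sided. The number of arrays (3 per group) limits the precision. Promoter identity came from global alignment in Biopython 1.88.

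Members and gene lists were chosen with earlier results of these data known. All members are named; per pathway list, up to 4 genes past the test with the largest difference; and, per E2-responsive member, the 3 genes with the highest r. Alternatives covered the arrays fitted, filters, normalization, an addition of 16 to the linear values, prior, array weights, the replicate number as a block and left-out arrays.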

Additional observations from a re-analysis of the deposited data

Results flagged for a closer look

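Klk1b1 was the member whose E2 effect differed between the tissues by a test of the difference itself. It was 1.68 in oviduct and 0.07 in uterus on the log2 scale, a difference of 1.61 (SE 0.19, limma adjusted p = 0.00032), with all 3 E2 oviduct arrays above all 3 oil oviduct arrays. The uterine values (3.59 to 3.98 in E2 and 3.68 to 3.74 in oil uteri) lay below the median of the olfactory receptor genes, 4.07.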

How the results depend on the processing

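No Klk1b result changed sign among those called, under any of the alternatives run. In the oviduct the count of 3 members changed by E2 was 1 (Klk1b1) when all probe sets were tested, after quantile normalization, after subtracting each array's median and with the arrays of the 2 groups compared alone, and 4 with array weights. In the uterus the count of 2 was 1 (Klk1b24) with all probe sets, with 16 added to the intensity, after median subtraction and with the 2 groups alone, and 3 with array weights. The count of 1 member with a tissue-dependent effect was 2 with array weights (Klk1b5 added, adjusted p = 0.049). Leaving out 1 array in turn gave 1 to 2 members in the oviduct, 1 to 2 in the uterus, 1 for the difference between tissues, 7 to 8 for the tissue difference in E2 mice and 7 in oil mice. Without both arrays of oil replicate 3 the oviduct count was 2 (Klk1b1 and Klk1b5) and the uterus count 2. Testing all probe sets lengthens the list the p-values are adjusted over; for the other alternatives the cause was not tested. A filter at the median of gene means kept none of the members and gives no value. Over the genes tested, leaving aside the alternative with all probe sets, the count called in the oviduct was 58 and ranged between 10 and 264, that in the uterus was 5332 (4226 to 8214), that for the difference between tissues 2288 (1571 to 4531), and the tissue counts were 6793 in E2 mice (5461 to 10554) and 7725 in oil mice (6266 to 8862).

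The replicate numbers were not used to pair the arrays in the main fit. Same-numbered deviations correlated at -0.087, -0.2 and 0.012 between E2 and oil oviducts, and at 0.188, -0.012 and -0.057 between E2 and oil uteri. Between oviduct and uterus they correlated at 0.263, 0.026 and 0.034 in E2 mice and at 0.005, 0.047 and 0.262 in oil mice. No comparison had all 3 pairs over 0.1, the level set for pairing. The oviduct and uterus values were all positive, and with 3 arrays per group this check cannot exclude that same-numbered oviducts and uteri shared mice. The labels used here do not say whether they did. With the number as a replicate block the counts were 3 in the oviduct, 2 in the uterus, 1 for the difference between tissues, 8 in E2 mice and 7 in oil mice. Low brightness limits the members Klk1b8, Klk1b9, Klk1b16 and Klk1b22 in all groups, and Klk1b1 and Klk1b5 in all but the E2 oviduct. It limits Klk1b7-ps, Klk1b11, Klk1b24 and Klk1b27 in both uterus groups. Of the uterus arrays, 1 E2 array each for Klk1b9, Klk1b24 and Klk1b27 exceeded the olfactory receptor level.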
